A study of Rattus norvegicus with 36 samples.

Results

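Osteoglycin, encoded by *Ogn*, and its relatives among the small leucine-rich proteoglycans (SLRPs) were followed across H9C2 cells transfected with miR-125b or its isomiRs in normoxia or hypoxia. The members were *Ogn*, *Dcn*, *Lum*, *Bgn*, *Fmod*, *Aspn*, *Prelp*, *Omd* and *Podn*, found by gene symbol in the deposited tables. Of these 9 symbols, 7 were listed, under 9 gene identifiers of 24275 in all. *Omd* and *Podn* were not listed under these symbols and were skipped. *Ogn* was selected on measured values of these libraries, its low expression with Trim AG against miR-125b in hypoxia, and the others were taken as its family. All members are therefore described without a test in that contrast, and *Ogn* also wherever the libraries of Hypoxia Trim AG or Hypoxia miR-125b enter.

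SLRPs are secreted proteins of the extracellular matrix, built around a core of leucine-rich repeats that in most members carries glycosaminoglycan chains. They bind collagen fibrils, control how these assemble, and hold growth factors such as those of the TGF-β family near the cell. Decorin (*Dcn*) and biglycan (*Bgn*) carry chondroitin or dermatan sulfate, and asporin (*Aspn*) is their close relative without such chains. Lumican (*Lum*) and fibromodulin (*Fmod*) carry keratan sulfate, and PRELP (*Prelp*) binds heparin and basement membranes. Osteoglycin, also called mimecan, is found in bone, cornea, vessel wall and heart, where it has been linked to the mass of the left ventricle. In the heart SLRPs are made mostly by fibroblasts and are known for their part in scar and fibrosis.

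H9C2 is a rat cardiac myoblast line with features of skeletal muscle. Cells received 25 nmol/L of a mimic control (MC), of miR-125b, or of 1 of 4 isomiRs, named Trim AGU, Trim AG, Trim A and Plus A, and were then kept in normoxia with fresh DMEM or in hypoxia with serum-free low-glucose DMEM. Oxygen and medium changed together and cannot be told apart. Libraries were made from poly-A RNA without marking strand, 3 for each of the 12 groups, and counts of 33 libraries in 11 groups were used, since Normoxia MC was given only as a group mean. Nothing in the labels says that replicates were separate cultures, so p-values measure the spread between these libraries, which may be technical.

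The mimics share their seed (bases 2 to 8, in capitals) and differ only at the 3′ end, so they are shown for the change that separates the groups. The labels number the trimmed forms, and these were read in the order in which the protocol lists their names. The sequence of rat miR-125b-5p is from RefSeq, where it is listed in GRCr8 at *Mir125b2*, chr11:29732588-29732609, plus strand. The hairpin of *Mir125b1*, on another chromosome, holds the same mature sequence. The other 4 were written from it by adding or removing the bases in their names.
miR-125b: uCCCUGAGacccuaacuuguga
Plus A: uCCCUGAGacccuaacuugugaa
Trim A: uCCCUGAGacccuaacuugug
Trim AG: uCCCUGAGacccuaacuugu
Trim AGU: uCCCUGAGacccuaacuug
From Plus A to Trim AGU the mimics are therefore 23, 22, 21, 20 and 19 bases long.

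Total counts were 28361216 to 42672584 per library (median 29923694), highest in the 3 libraries of Hypoxia Trim AG. Replicate 2 of Hypoxia Trim AGU had the fewest genes with a count, 16981, against 18342 to 19451 in the other libraries. The libraries labelled replicate 1 of Normoxia miR-125b and of Normoxia Plus A went against their labels in *Cav1*, a gene chosen after its values were seen. It had 102, 282 and 263 CPM (counts of a gene scaled to the total of its library) in replicates 1 to 3 of Normoxia miR-125b and 269, 98.0 and 98.3 CPM in those of Normoxia Plus A, against 241 to 246 CPM with miR-125b and 93.9 to 100.2 CPM with Plus A in hypoxia. Member calls that rest on these libraries are given with and without them. The myoblast marker *Myod1* had 17.1 to 146 CPM over all libraries, while *Myf5* and *Tbx5* had at most 0.0703 and 0.169 CPM. All 13 markers of the myoblast and cardiac list were listed, and they summed to 1004 to 1021 CPM in Hypoxia MC and to 175 to 362 CPM in the other groups. Fibroblast markers, 7 of 8 listed, were led by *Col1a1* with 5403 to 27702 CPM. Endothelial and immune markers, 4 of 6 listed, summed to 2.16 to 6.35 CPM, and *Ptprc*, the pan-leukocyte marker, had at most 0.188 CPM.

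Biglycan was by far the most abundant member. Levels between genes were compared as FPKM, counts that the authors scaled by gene length and library size, in Hypoxia MC (mean ± SD, n = 3). *Bgn* had 1283 ± 37.9 FPKM, *Lum* 28.2 ± 1.67 FPKM and *Dcn* 21.2 ± 1.36 FPKM. *Ogn* had 2.64 ± 2.18 FPKM and *Fmod* 0.759 ± 0.0770 FPKM. *Prelp* had 0.252 ± 0.0321 FPKM and *Aspn* 0.207 ± 0.0846 FPKM, which is close to the limit of what these libraries count. With miR-125b in hypoxia *Bgn* again led at 1081 ± 21.7 FPKM, and *Lum* with 7.66 ± 0.539 FPKM and *Dcn* with 6.53 ± 0.401 FPKM came next, ahead of *Fmod* with 2.64 ± 0.151 FPKM.

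By the coordinates of the tables, whose genome build is not given in the sources used here, several members lie side by side. *Dcn* (ENSRNOG00000004554) is on chromosome 7, 38742051 to 38782323 on the plus strand, and *Lum* (ENSRNOG00000004610) on chromosome 7, 38819771 to 38826862 on the plus strand, 37447 bases further on. The cornea gene *Kera* follows *Lum* with at most 0.103 CPM in any library. *Fmod* (ENSRNOG00000003183) is on chromosome 13, 50873605 to 50885563 on the plus strand, and *Prelp* (ENSRNOG00000003120) on chromosome 13, 50749514 to 50761355 on the minus strand, 3159 bases from *Optc*, an eye SLRP with 0.465 CPM on average. *Bgn* (ENSRNOG00000055962) is on chromosome X, 157319046 to 157331204 on the minus strand. *Ogn* (ENSRNOG00000029792) is on chromosome 17, 14607442 to 14627937 on the minus strand, 28071 bases from *Aspn* (ENSRNOG00000015410). Each of the symbols *Ogn* and *Aspn* also has another identifier on the same chromosome, for *Ogn* at 15449301 to 15467279 on the minus strand, so how reads divide between the copies is uncertain.

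*Ogn* was lowest of all 11 groups with Trim AG in hypoxia, the value for which it was chosen. Its levels in libraries 1 to 3 were 0.291, 0.200 and 0.0937 CPM there, from 12, 8 and 4 reads. With miR-125b in hypoxia the 3 libraries had 4.43, 5.87 and 4.62 CPM, so that the groups did not overlap. The fitted log2 fold change was -4.64. The next higher group by its mean was Normoxia Trim AGU, with 0.346, 0.517 and 0.793 CPM. In these bulk samples, fewer cells of a type and less RNA per cell cannot be told apart.

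Hypoxia MC had the highest mean *Ogn*, but its libraries spread over 6.29-fold, with 14.2, 5.84 and 2.27 CPM. Plus A had 7.25, 3.10 and 4.43 CPM in hypoxia, and Trim A had 3.03, 4.91 and 3.91 CPM. Both overlapped the libraries of MC and of miR-125b. Trim AGU was lower, at 1.00, 1.00 and 1.23 CPM in hypoxia, below every library of MC, miR-125b, Plus A and Trim A. In normoxia *Ogn* had 0.617, 1.39 and 2.12 CPM with miR-125b and 1.19, 0.620 and 2.36 CPM with Plus A. With Trim A it had 3.42, 1.44 and 2.04 CPM, and with Trim AG 0.625, 1.88 and 0.164 CPM, a spread of 11.5-fold that overlaps every other normoxia group. In the order of the 11 means, neighbours overlapped in every step but the last, from Normoxia Trim AGU down to Hypoxia Trim AG.

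The other *Ogn* identifier (ENSRNOG00000047786) had at most 13 reads in 32 of the 33 libraries. The exception was replicate 2 of Hypoxia Plus A, with 167 reads beside 1 and 4 in the other libraries of its group. In Hypoxia Trim AG all 3 libraries had 0 reads for this identifier, which allows up to 0.0242 CPM over the group. Replicate 2 of Hypoxia Plus A was also the lowest of its group for the first identifier, and summed over both it had 8.73 CPM against 7.29 and 4.56 CPM. Whether reads moved between the copies there was not tested.

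**Figure D1:**
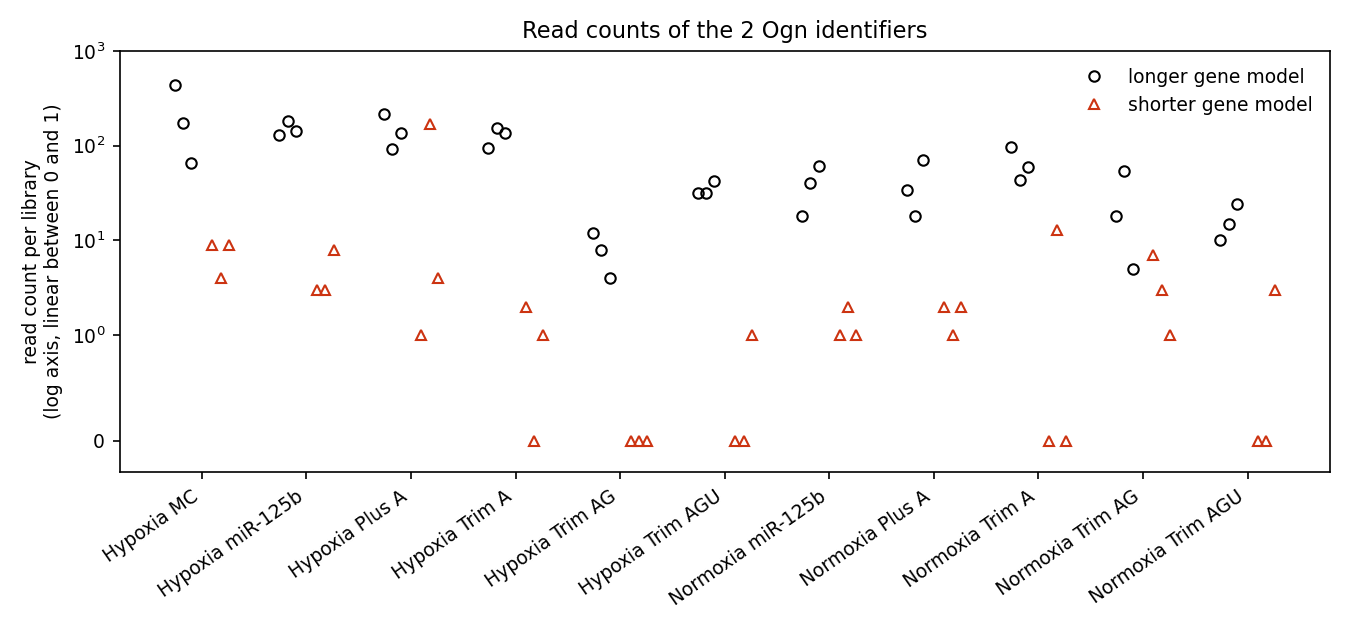
Read counts of both *Ogn* identifiers in each of the 33 libraries, by group; circles are the longer gene model and triangles the shorter, on a log axis that is linear between 0 and 1. Hypoxia Trim AG has 4 to 12 reads of the longer model and 0 of the shorter, and a single Hypoxia Plus A library has 167 reads of the shorter.

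**Figure D2:**
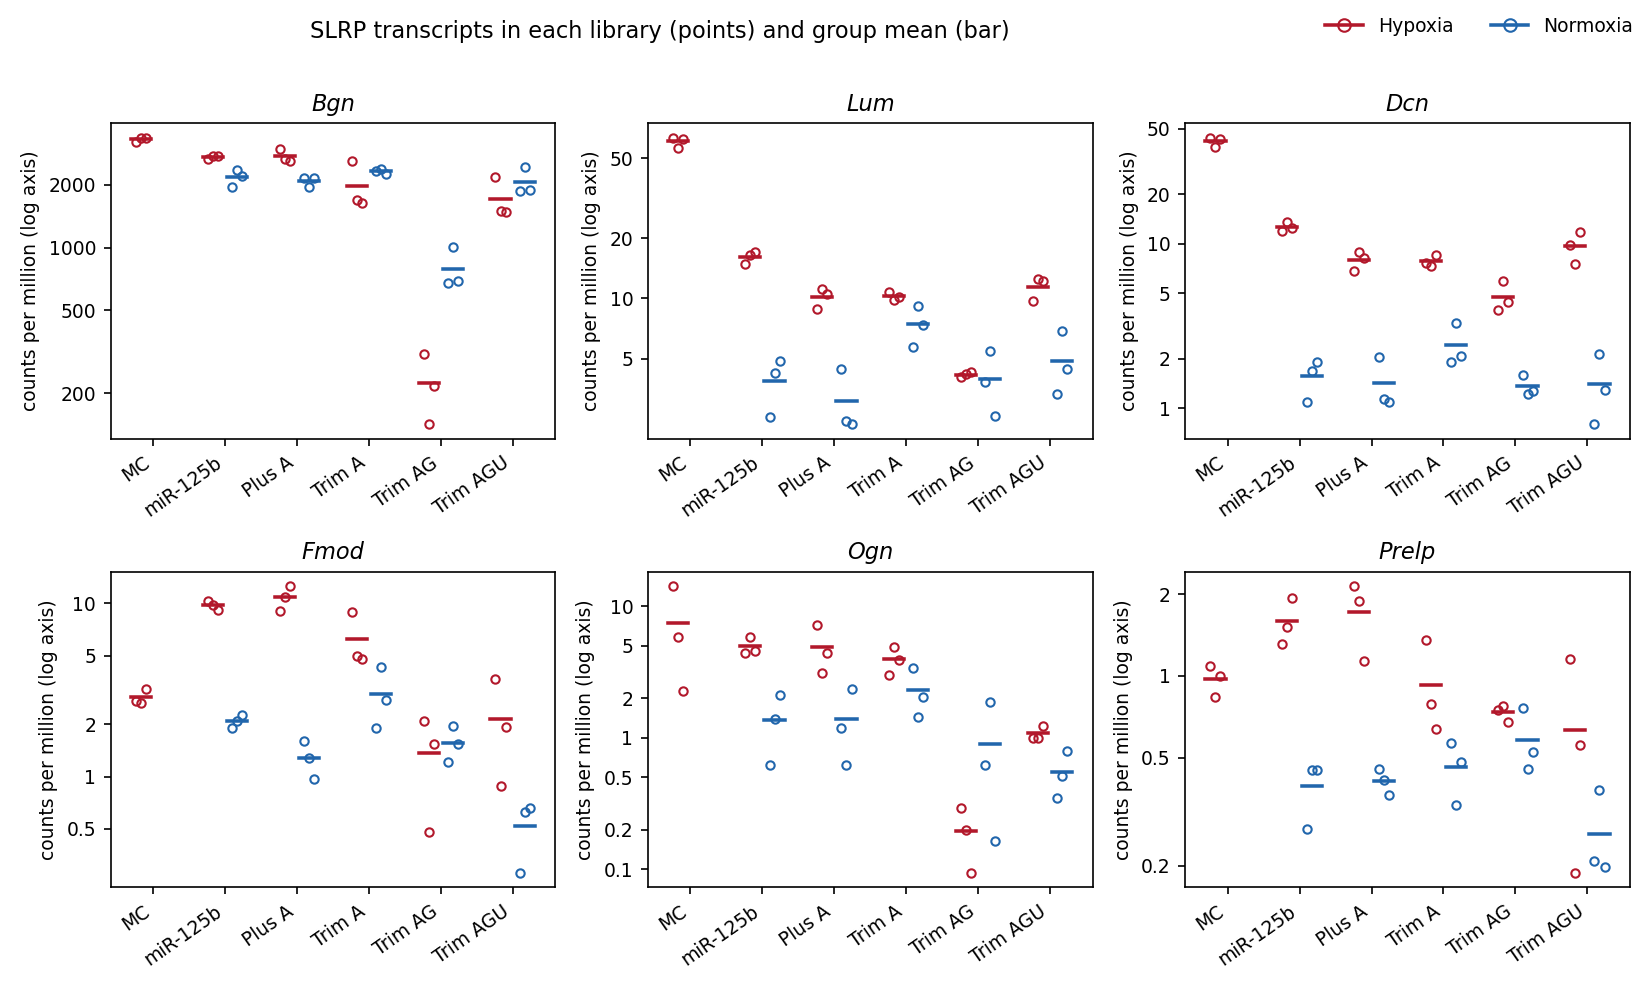
CPM (log axis) of the 6 SLRP genes with enough reads for a test, in each library (points, replicates 1 to 3 from left to right) with the group mean (bar), by mimic; red is hypoxia and blue is normoxia. *Bgn* and *Ogn* are lowest with Trim AG in hypoxia, and *Lum* and *Dcn* are highest with MC in hypoxia.

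*Bgn*, the biglycan gene, was lowest with Trim AG under both oxygen conditions. In hypoxia its 3 libraries had 309, 142 and 218 CPM with Trim AG, against 2661, 2756 and 2765 CPM with miR-125b. MC had 3207, 3378 and 3371 CPM, the highest of all groups, and Plus A had 2963, 2665 and 2612 CPM. Trim A had 2605, 1688 and 1633 CPM and Trim AGU 2174, 1508 and 1482 CPM, in each case with replicate 1 above the other libraries. In normoxia Trim AG had 678, 1005 and 693 CPM, below every library of the other normoxia groups. The remaining normoxia libraries lay close together, with 1954, 2356 and 2212 CPM for miR-125b, 2152, 1953 and 2151 CPM for Plus A, 2341, 2382 and 2247 CPM for Trim A and 1864, 2443 and 1896 CPM for Trim AGU. In the order of the 11 means of *Bgn*, neighbours did not overlap in 4 of 10 steps, which set off MC in hypoxia, the pair of Plus A and miR-125b in hypoxia, and each Trim AG group.

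*Lum* and *Dcn*, neighbours on the chromosome, had their highest levels in the same group. With MC in hypoxia *Lum* had 63.4, 56.3 and 62.4 CPM and *Dcn* 44.2, 38.9 and 43.5 CPM. With miR-125b in hypoxia *Lum* had 14.8, 16.4 and 17.0 CPM, and Plus A and Trim A lay lower still, at 8.82, 11.1 and 10.5 CPM and 10.8, 9.82 and 10.2 CPM. Trim AG had 4.04, 4.18 and 4.29 CPM and Trim AGU 9.70, 12.5 and 12.2 CPM. In normoxia the range of *Lum* was 2.36 to 9.20 CPM, and Trim A had the highest mean, at 7.44 ± 1.73 CPM (SD, n = 3). The libraries of MC in hypoxia stood 3.78-fold above the next group in mean *Lum*, and below the second group, miR-125b in hypoxia, a further gap of non-overlapping libraries preceded the other 9 groups.

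*Dcn* separated hypoxia from normoxia under every mimic measured in both. In hypoxia *Dcn* had 11.9, 13.5 and 12.5 CPM with miR-125b, 6.78, 8.87 and 8.22 CPM with Plus A and 7.66, 7.31 and 8.52 CPM with Trim A. Trim AG had 3.97, 5.93 and 4.41 CPM and Trim AGU 9.79, 7.50 and 11.8 CPM. In normoxia no library exceeded 3.29 CPM. The normoxia means were 1.56 ± 0.419 CPM (SD, n = 3) for miR-125b, 1.43 ± 0.544 CPM for Plus A, 2.42 ± 0.757 CPM for Trim A, 1.37 ± 0.204 CPM for Trim AG and 1.41 ± 0.678 CPM for Trim AGU. These 5 groups followed each other in the order of levels, and each overlapped the next.

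*Fmod*, which takes part in collagen fibril assembly beside lumican, had another pattern. It was high with miR-125b in hypoxia, at 10.3, 9.78 and 9.17 CPM, and with Plus A, at 9.06, 10.9 and 12.6 CPM, while MC had 2.74, 2.65 and 3.23 CPM. Trim A had 8.88, 5.00 and 4.78 CPM, with replicate 1 again apart. Trim AG had 2.08, 0.476 and 1.55 CPM and Trim AGU 3.66, 0.879 and 1.94 CPM, both with replicate 1 highest and replicate 2 lowest. In normoxia it had 1.92, 2.09 and 2.26 CPM with miR-125b, 1.60, 1.27 and 0.963 CPM with Plus A and 1.90, 4.30 and 2.76 CPM with Trim A. Normoxia Trim AG had 1.22, 1.95 and 1.54 CPM, and Normoxia Trim AGU was the lowest group, at 0.277, 0.621 and 0.661 CPM, below every library of Normoxia Plus A, its neighbour in the order.

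*Prelp*, the heparin-binding member, had at most 2.14 CPM in any library. Its highest groups were Plus A and miR-125b in hypoxia, with 2.14, 1.89 and 1.13 CPM and 1.31, 1.52 and 1.94 CPM. MC had 1.09, 0.840 and 0.995 CPM, Trim A 1.35, 0.792 and 0.638 CPM and Trim AG 0.750, 0.776 and 0.680 CPM in hypoxia. The libraries of Trim AGU spread from 0.188 to 1.16 CPM. In normoxia the range was 0.198 to 0.764 CPM over the 15 libraries. *Aspn* was counted in 14 libraries under ENSRNOG00000015410 and in 9 under ENSRNOG00000050431, the latter all in hypoxia. Hypoxia MC had 10, 6 and 14 reads of the former, Plus A 1, 2 and 24 and Trim A 0, 17 and 10, while Trim AGU had 0 in all 3, which allows up to 0.0306 CPM over the group.

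Comparing each mimic with MC in hypoxia asks what transfection with miR-125b or an isomiR does to these genes. *Lum* and *Dcn* were down-regulated by all 5 mimics, and *Bgn* by the trimmed forms. *Fmod* was up-regulated by Trim A, Plus A and miR-125b. Calls needed an edgeR p below 0.05 after Benjamini-Hochberg adjustment over all genes tested, together with a change of 1.5-fold or more. The 5 comparisons share the MC libraries, so their values stand side by side and were not set against each other.

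With miR-125b the log2 fold change of *Lum* was -1.88 (SE 0.067, edgeR adjusted p = 2.9e-09) and that of *Dcn* -1.70 (SE 0.069, edgeR adjusted p = 7.4e-09). *Fmod* rose by 1.80 (SE 0.13, edgeR adjusted p = 5.5e-07) on the log2 scale. *Prelp* rose by 0.74 (SE 0.24, edgeR adjusted p = 0.0203), a call lost without MC replicate 2 (adjusted p = 0.0636) or miR-125b replicate 3 (adjusted p = 0.0972), and in the fit of all libraries (adjusted p = 0.113). *Bgn* had a log2 fold change of -0.25 (SE 0.028, edgeR adjusted p = 2.1e-05), which is under the fold threshold. Besides *Ogn*, 4 of the 5 other members tested were called, where 21.9% of all genes tested were. The sum of the myoblast markers, 1004 to 1021 CPM with MC and 213 to 216 CPM with miR-125b, moved the same way as *Lum* and *Dcn*, and its part in the result was not tested.

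With Plus A *Lum* had a log2 fold change of -2.56 (SE 0.086, edgeR adjusted p = 1.8e-08) and *Dcn* one of -2.38 (SE 0.097, edgeR adjusted p = 5.4e-08). *Fmod* rose by 1.94 (SE 0.16, edgeR adjusted p = 3.9e-06). *Prelp* rose by 0.84 (SE 0.28, edgeR adjusted p = 0.0287), a call lost without MC replicate 2 or 3 or Plus A replicate 1 or 2 (adjusted p = 0.0911, 0.0698, 0.0969 and 0.0809) and in the fit of all libraries (adjusted p = 0.0694). *Ogn*, at -0.57 (SE 0.53) with an edgeR adjusted p = 0.385, was not called, and its interval ran from -1.76 to 0.62. The count was 4 of 6 members tested, *Ogn* included, beside 24.8% of all genes.

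Trim A lowered *Lum* and *Dcn* with log2 fold changes of -2.52 (SE 0.078, edgeR adjusted p = 7.6e-07) and -2.38 (SE 0.093, edgeR adjusted p = 2.1e-06). *Fmod* was higher by 1.16 (SE 0.25, edgeR adjusted p = 0.00548). *Bgn* was now also called, at -0.71 (SE 0.16, edgeR adjusted p = 0.00676), although replicate 1 of Trim A lay near miR-125b. *Ogn* had -0.87 (SE 0.55, edgeR adjusted p = 0.216), and without MC replicate 3, its lowest MC library, it was called at -1.30 (adjusted p = 0.0296). Here 7 members were tested, *Aspn* among them through its reads in MC and Trim A, and 4 were called against 28.1% of all genes. The *Aspn* value was -0.23 (SE 0.84, edgeR adjusted p = 0.835).

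With Trim AG *Bgn*, *Lum* and *Dcn* were lower than with MC. *Bgn* fell by 3.84 (SE 0.25, edgeR adjusted p = 4.8e-06) on the log2 scale. For *Lum* the value was -3.80 (SE 0.087, edgeR adjusted p = 8.7e-08) and for *Dcn* -3.08 (SE 0.15, edgeR adjusted p = 1.5e-06). *Fmod* had -1.01 (SE 0.42, edgeR adjusted p = 0.0647) and was not called, but passed with DESeq2 at -1.01 (adjusted p = 0.0190), in the fit of all libraries, and without Trim AG replicate 1 or 2. In those last 3 fits the count was 5, with *Aspn* as the fifth. With no library left out, *Aspn* had too few reads for the filter in the fit of this comparison. It was also called without MC replicate 2 (adjusted p = 0.00402) or Trim AG replicate 3 (adjusted p = 0.00697). Its reads were in MC, at 0.338 CPM on average against 0.00781 CPM with Trim AG. It passed the filter through MC alone, so its calls are a description. The *Ogn* log2 fold change was -5.18, as a description. *Prelp* had -0.34 (SE 0.25, edgeR adjusted p = 0.266). Besides *Ogn*, 3 of the 5 other members tested were called, each of them lower, where 20.2% of all genes were called lower and 37.2% in either direction. The fibroblast markers summed to 8939 to 16351 CPM with Trim AG and to 22534 to 23847 CPM with MC. The largest part of each sum was *Col1a1*, and most genes of that list were not called in this comparison. The part of these markers in the result was not tested.

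With Trim AGU *Lum* had a log2 fold change of -2.25 (SE 0.17, edgeR adjusted p = 6.1e-04) and *Dcn* one of -1.99 (SE 0.16, edgeR adjusted p = 7.5e-04). *Bgn* had -0.81 (SE 0.16, edgeR adjusted p = 0.0131), a call lost without any of the 3 MC libraries (adjusted p = 0.0601, 0.0681 and 0.0668). *Ogn* can be tested here and had -2.65 (SE 0.64, edgeR adjusted p = 0.0231). Its call was lost without MC replicate 1, which held the highest *Ogn* value, at -1.77 (adjusted p = 0.0589), and without MC replicate 2 or Trim AGU replicate 1 or 3 (adjusted p = 0.0602, 0.0593 and 0.0798). The members called were 4 of 6 tested, all lower, beside 12.4% of all genes called lower. Without MC replicate 1 or 2 only *Lum* and *Dcn* remained, 2 members. *Aspn* (ENSRNOG00000015410) had 0 reads with Trim AGU and, with no library left out, too few for the filter in this comparison. It was called without Trim AGU replicate 1, 2 or 3 (edgeR adjusted p = 0.0263, 0.0104 and 0.0449). It passed the filter there through MC alone, so these calls are a description. Neither *Fmod*, at -0.30, nor *Prelp*, at -0.51, passed the test.

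**Figure D3:**
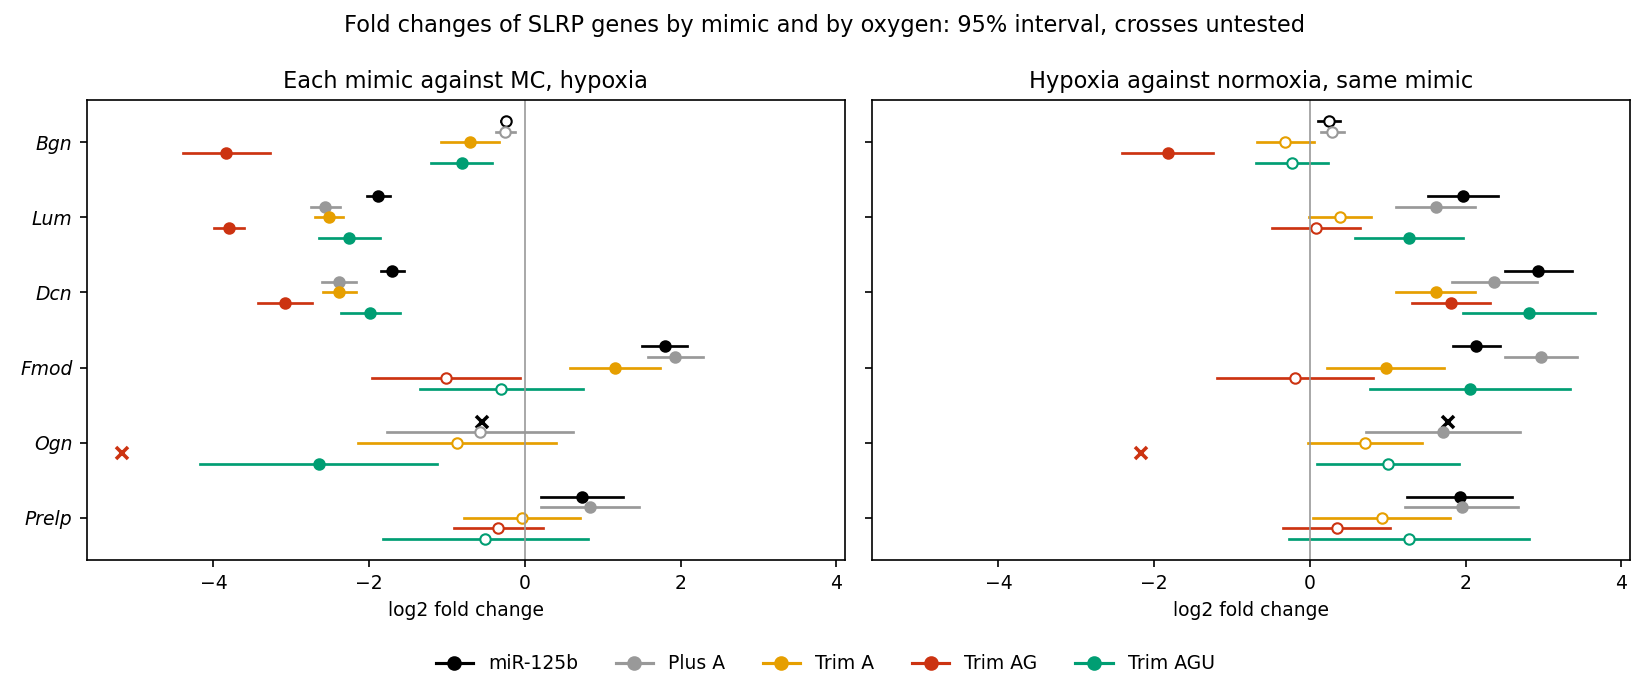
Log2 fold changes (x axis) of the 6 SLRP genes for each mimic against MC in hypoxia (left) and for hypoxia against normoxia under the same mimic (right); colors are mimics, lines are 95% intervals, filled circles passed the test, open circles did not, and crosses are values given without a test. *Lum* and *Dcn* lie left of 0 for every mimic against MC, and *Dcn* lies right of 0 for hypoxia against normoxia under every mimic.

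The isomiRs were compared with miR-125b under the same oxygen to ask what the change at the 3′ end does. In hypoxia Plus A lowered *Lum* and *Dcn* a little further. Its log2 fold change against miR-125b was -0.68 (SE 0.10, edgeR adjusted p = 0.00395) for *Lum* and -0.69 (SE 0.12, edgeR adjusted p = 0.00619) for *Dcn*, with no overlap between the libraries. These were 2 of 5 members tested besides *Ogn*, both lower, beside 1.32% of all genes called lower. Both calls were lost when all libraries shared a fit (adjusted p = 0.162 and 0.150), and *Dcn* fell under the fold threshold without Plus A replicate 1, at -0.58, which left 1 member called. *Bgn* had -0.0073 (95% interval -0.11 to 0.1) and *Fmod* 0.14 (95% interval -0.15 to 0.42). The *Ogn* log2 fold change was -0.032.

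Trim A had nearly the same values in hypoxia, -0.64 (SE 0.097, edgeR adjusted p = 0.0255) for *Lum* and -0.69 (SE 0.11, edgeR adjusted p = 0.0293) for *Dcn*, 2 of 5 members tested besides *Ogn*, where 0.417% of all genes were called lower. Both calls were lost without any one of 5 libraries, which were all of miR-125b and Trim A replicates 2 and 3, with adjusted p-values up to 0.160 for *Lum* and 0.177 for *Dcn*. They were also lost in the fit of all libraries (adjusted p = 0.137 and 0.103). Replicate 1 of Trim A stood apart for *Bgn* and *Fmod*. Without it 5 members were called, *Bgn* at -0.70 (adjusted p = 1.1e-06), *Fmod* at -0.98 (adjusted p = 2.6e-04) and *Prelp* at -1.13 (adjusted p = 0.0129) beside *Lum* and *Dcn*. With it their values were -0.46, -0.65 and -0.78. The *Ogn* log2 fold change was -0.33.

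Trim AG against miR-125b in hypoxia is the contrast that singled out *Ogn*, and its values are a description. The 6 members that passed the filter had lower fitted values with Trim AG, and none is counted as called. Of all genes tested, 11.5% were called lower in this contrast, a share at the thresholds of a call and not by sign. By sign, the median log2 fold change over all genes tested was -0.0019. The log2 fold changes were -4.64 for *Ogn*, -3.60 for *Bgn*, -2.81 for *Fmod*, -1.93 for *Lum*, -1.39 for *Dcn* and -1.09 for *Prelp*. In mean CPM *Bgn* went from 2727 ± 57.5 CPM (SD, n = 3) to 223 ± 83.7 CPM (SD, n = 3), and *Ogn* from 4.97 ± 0.783 CPM (SD, n = 3) to 0.195 ± 0.0985 CPM (SD, n = 3). The fibroblast markers summed to 30210.0 to 31307 CPM with miR-125b and to 8939 to 16351 CPM with Trim AG, with *Col1a1* as the largest part. The myoblast markers summed to 213 to 216 CPM and 222 to 284 CPM in the same order. The part of these markers in the values was not tested.

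Trim AGU against miR-125b in hypoxia lowered *Fmod*, with a log2 fold change of -2.11 (SE 0.43, edgeR adjusted p = 0.0468). The call was lost without any miR-125b library or Trim AGU replicate 3 (adjusted p = 0.187, 0.196, 0.189 and 0.168) and under scaling by total counts (adjusted p = 0.0608). The *Ogn* value was -2.11, as a description. Besides *Ogn*, *Fmod* was the only one of the 5 other members tested that was called, beside 1.93% of all genes called lower. *Bgn* had -0.58 (SE 0.16, edgeR adjusted p = 0.0998), and without Trim AGU replicate 1, its highest library, it was called at -0.73 (adjusted p = 0.0234). For *Lum* the log2 fold change was -0.38 (95% interval -0.80 to 0.033) and for *Dcn* -0.30 (95% interval -0.70 to 0.11).

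In normoxia Trim AGU and Trim AG each had 1 member called against miR-125b. Trim AG lowered *Bgn*, with a log2 fold change against miR-125b of -1.50 (SE 0.14, edgeR adjusted p = 7.1e-05), and no other member was called. It was 1 of 6 members tested, beside 6.36% of all genes called lower, and *Bgn* stayed called without each library in turn, at -1.57 (adjusted p = 9.2e-05) without the library labelled Normoxia miR-125b replicate 1. *Ogn* can be tested in normoxia, and with Trim AG it had -0.67 (SE 0.68, edgeR adjusted p = 0.472) and a 95% interval of -2.22 to 0.87. Trim AGU lowered *Fmod*, at -2.00 (SE 0.32, edgeR adjusted p = 0.00215), again 1 of 6 members beside 5.16% of all genes called lower. *Ogn* had -1.31 (SE 0.47, edgeR adjusted p = 0.0719) with Trim AGU. Without the library labelled Normoxia miR-125b replicate 1, whose *Cav1* went against that label, *Fmod* had -2.06 (adjusted p = 0.00834) and *Ogn* -1.66 (adjusted p = 0.0249), both called. With all libraries *Ogn* was also called by DESeq2 at -1.32 (adjusted p = 0.0446).

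Plus A in normoxia changed 0 of 6 members tested by edgeR, where 0 of all genes were called and 404 had an unadjusted p below 0.05, and DESeq2 also called 0 members. *Fmod* had the largest value there, -0.70 (SE 0.23, edgeR adjusted p = 0.997). Without replicate 1 of both groups *Lum* was called, at -0.90 (adjusted p = 0.0340), against -0.34 (SE 0.31, edgeR adjusted p = 0.997) with them. Trim A in normoxia changed 0 of 6 by edgeR, beside 0.414% of all genes and 2758 with an unadjusted p below 0.05. *Lum* had 0.94 (SE 0.25, edgeR adjusted p = 0.0852) with no overlap between the libraries, and DESeq2 called it at 0.94 (adjusted p = 0.00194), while without Normoxia miR-125b replicate 1 edgeR gave 0.72 (adjusted p = 0.112). In hypoxia the value of *Lum* for Trim A was negative, as given above.

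**Figure D4:**
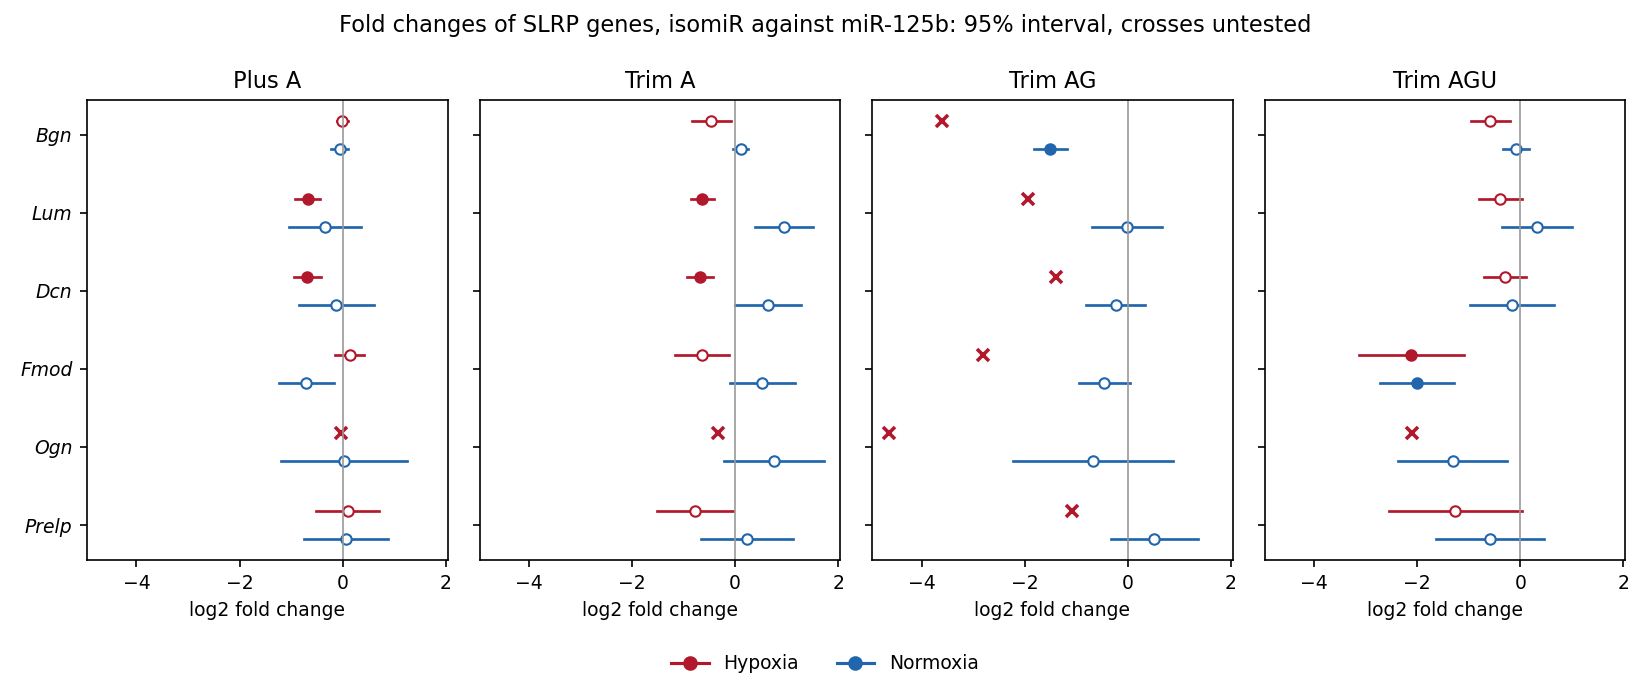
Log2 fold changes (x axis) of the 6 SLRP genes for each isomiR against miR-125b, in hypoxia (red) and normoxia (blue); lines are 95% intervals, filled circles passed the test, open circles did not, and crosses are values given without a test. With Trim AG *Bgn* lies left of 0 under both oxygen conditions, and with Trim AGU the same holds for *Fmod*.

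Trim AGU lacks a further base compared with Trim AG, and *Bgn* separated the pair. In normoxia *Bgn* was higher with Trim AGU by 1.42 (SE 0.17, edgeR adjusted p = 0.00307), and *Fmod* was lower, at -1.54 (SE 0.35, edgeR adjusted p = 0.0332). These were 2 of 6 members tested, beside 2.84% of all genes. *Bgn* kept its call without each library in turn, while that of *Fmod* was lost without Trim AG replicate 1, 2 or 3 or Trim AGU replicate 1 or 3 (adjusted p = 0.0705, 0.108, 0.122, 0.0527 and 0.0699). In hypoxia *Bgn* was higher with Trim AGU by 3.02 (SE 0.30, edgeR adjusted p = 0.0168) and *Lum* by 1.54 (SE 0.21, edgeR adjusted p = 0.0386), 2 of 5 members tested besides *Ogn*, where 0.238% of all genes were called higher. Without any Trim AG library, or without Trim AGU replicate 3, neither was called, with adjusted p-values of 0.0817 to 0.143 for *Bgn* and up to 0.304 for *Lum*, and without Trim AGU replicate 1 only *Bgn* was, 1 member (*Lum* adjusted p = 0.0688). *Dcn* had 1.09 (SE 0.24, edgeR adjusted p = 0.115), and was called as well without Trim AGU replicate 2 (adjusted p = 0.0357).

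Hypoxia was compared with normoxia for each mimic, and decorin was the member that rose in all 5 comparisons. Its log2 fold change was 2.94 (SE 0.19, edgeR adjusted p = 2.6e-06) with miR-125b, 2.37 (SE 0.24, edgeR adjusted p = 3.7e-05) with Plus A and 1.61 (SE 0.22, edgeR adjusted p = 5.0e-04) with Trim A. It was 1.81 (SE 0.22, edgeR adjusted p = 1.6e-04) with Trim AG and 2.82 (SE 0.37, edgeR adjusted p = 0.00192) with Trim AGU. *Dcn* passed the test in each of them without each library in turn, and its hypoxia libraries all lay above its normoxia libraries.

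With miR-125b *Fmod* rose by 2.14 (SE 0.14, edgeR adjusted p = 2.4e-06) on the log2 scale, *Lum* by 1.96 (SE 0.20, edgeR adjusted p = 4.0e-05) and *Prelp* by 1.92 (SE 0.30, edgeR adjusted p = 5.7e-04). *Ogn* had 1.77 as a description. Besides *Ogn*, 4 of the 5 other members tested were called, all higher in hypoxia, where 9.34% of all genes were. With Plus A the values were 2.97 (SE 0.21, edgeR adjusted p = 3.4e-06) for *Fmod*, 1.61 (SE 0.23, edgeR adjusted p = 3.0e-04) for *Lum* and 1.95 (SE 0.33, edgeR adjusted p = 8.5e-04) for *Prelp*. *Ogn*, which can be tested with Plus A, rose by 1.71 (SE 0.44, edgeR adjusted p = 0.00990). These with *Dcn* made 5 of 6 members tested, beside 10% of all genes called higher. *Bgn* had 0.24 with miR-125b and 0.29 with Plus A, under the fold threshold in both. No member lost its call in these 2 comparisons when any library was left out, the first libraries of Normoxia miR-125b and Normoxia Plus A included. Without these, with miR-125b and with Plus A in turn, *Dcn* had 2.74 and 2.70, *Fmod* 2.08 and 3.14, *Lum* 1.73 and 1.94 and *Prelp* 1.72 and 2.00. *Ogn* had 1.58 (adjusted p = 0.0344) with Plus A.

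With Trim A *Fmod* rose by 0.98 (SE 0.33, edgeR adjusted p = 0.0379), a call lost without Hypoxia Trim A replicate 1 or Normoxia Trim A replicate 1 or 3 (adjusted p = 0.0829, 0.115 and 0.109). Only *Dcn* and *Fmod* were called, 2 of 6 members tested beside 12% of all genes called higher. *Lum*, at 0.39 (SE 0.17, edgeR adjusted p = 0.0964), and *Ogn*, at 0.71 (SE 0.32, edgeR adjusted p = 0.101), did not pass the test. With Trim AG *Bgn* fell in hypoxia, with a log2 fold change of -1.83 (SE 0.26, edgeR adjusted p = 3.6e-04), and *Lum* had 0.078 (95% interval -0.48 to 0.64). The *Ogn* value was -2.16, as a description, and -0.99 without Normoxia Trim AG replicate 2. Besides *Ogn*, *Bgn* and *Dcn* were the 2 of 5 other members called, in opposite directions, beside 32.8% of all genes.

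With Trim AGU *Fmod* rose by 2.06 (SE 0.55, edgeR adjusted p = 0.0278) and *Lum* by 1.28 (SE 0.30, edgeR adjusted p = 0.0171). With *Dcn* these were 3 of 6 members, beside 13.6% of all genes called higher. The call of *Fmod* was lost without Trim AGU replicate 1 or 3 of hypoxia or any Trim AGU library of normoxia (adjusted p = 0.0687, 0.0642, 0.0912, 0.0849 and 0.0750). That of *Lum* was lost without Hypoxia Trim AGU replicate 3 or Normoxia Trim AGU replicate 1 or 3 (adjusted p = 0.0554, 0.0602 and 0.0769), which left 1 member called. *Ogn* had 1.00 (SE 0.39, edgeR adjusted p = 0.0895) and *Bgn* -0.23 (SE 0.20, edgeR adjusted p = 0.401). *Prelp* was called without Hypoxia Trim AGU replicate 2, at 1.67 (edgeR adjusted p = 0.0286), and in the fit of all libraries (edgeR adjusted p = 0.0144).

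Whether an isomiR differed from miR-125b by another amount in hypoxia than in normoxia was tested as an interaction over 12 libraries. For Trim A the interaction of *Lum* was -1.57 (SE 0.28, edgeR adjusted p = 0.0344), from -0.64 in hypoxia and 0.94 in normoxia. It was the only one of 5 members tested besides *Ogn* that was called, 1 member beside 0.483% of all genes called lower. The call was lost in 9 of the 12 fits that left out a library (highest adjusted p = 0.112), among them the fit without Normoxia miR-125b replicate 1 (adjusted p = 0.0525). Without Hypoxia Trim A replicate 1, 5 members were called, with *Dcn* at -1.29 (adjusted p = 0.00960), *Fmod* at -1.49 (adjusted p = 0.00536), *Bgn* at -0.79 (adjusted p = 7.2e-05) and *Prelp* at -1.36 (adjusted p = 0.0489). With all libraries *Dcn* had -1.32 (SE 0.30, edgeR adjusted p = 0.0537). For Plus A and Trim AGU edgeR called 0 of the 5 members besides *Ogn*, and DESeq2 called 0 as well, beside 0.0193% and 0.966% of all genes, with 2509 and 3428 genes at an unadjusted p below 0.05. *Bgn* was called for Trim AGU without Hypoxia Trim AGU replicate 1, at -0.61 (adjusted p = 0.0418). For Trim AG the interaction contains the contrast that singled out *Ogn*. Its values, as a description, were -3.97 for *Ogn*, -2.37 for *Fmod*, -2.11 for *Bgn*, -1.92 for *Lum*, -1.62 for *Prelp* and -1.16 for *Dcn*. Without Normoxia miR-125b replicate 1 they were -3.62, -2.31, -2.04, -1.69, -1.41 and -0.96 in the same order. No member is counted as called here. Of all genes tested, 6.97% were called lower in this interaction.

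Other SLRP genes, 8 of 9 symbols listed, included *Podnl1* and *Tsku* at 108 and 89.7 CPM on average, while the rest averaged at most 1.09 CPM. *Podnl1*, a podocan-like gene, fell with miR-125b against MC in hypoxia, at -0.94 (SE 0.03, edgeR adjusted p = 1.5e-09), and with Trim AG, at -2.20 (SE 0.15, edgeR adjusted p = 6.0e-06). *Epyc*, the gene of epiphycan, a cartilage SLRP, had -1.17 (SE 0.18, edgeR adjusted p = 1.8e-04) and -3.15 (SE 0.28, edgeR adjusted p = 2.4e-05) in the same comparisons. In all, 3 of 5 genes tested were lower and 0 higher with miR-125b (median log2 fold change -0.94), and 3 of 7 genes tested were lower and 2 higher with Trim AG (median -1.02), where the medians over all genes tested were 0.0027 and 0.0033. Over all genes tested, 12.5% were called lower with miR-125b and 20.2% with Trim AG, the shares beside which the counts of lower genes in this and the following lists stand. Genes were named from each list for being called in the most comparisons, so their calls do not stand for the list.

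Genes for the processing and turnover of SLRPs were lower with Trim AG where they were called. Of the 11 in the list, 4 of 10 genes tested were lower and 0 higher with miR-125b against MC in hypoxia, and 6 of 9 genes tested were lower and 0 higher with Trim AG (medians -0.49 and -1.59), where 12.5% and 20.2% of all genes tested were lower. *Bmp1*, the protease that removes the propeptide of biglycan, had -0.91 (SE 0.026, edgeR adjusted p = 7.4e-10) and -1.83 (SE 0.18, edgeR adjusted p = 4.3e-05). *Mmp14*, a membrane-bound collagenase, had -0.12 with miR-125b and -2.25 (SE 0.18, edgeR adjusted p = 1.7e-05) with Trim AG, and in normoxia it fell with Trim AG against miR-125b, at -1.36 (SE 0.068, edgeR adjusted p = 5.7e-06), or -1.37 (adjusted p = 5.5e-06) without Normoxia miR-125b replicate 1. *Adamts4*, an aggrecanase that also cuts SLRPs, had -1.84 and -3.63 against MC, and *Mmp2*, a gelatinase, -1.24 and -2.79, all called.

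Among matrix partners of SLRPs, all 22 of them listed, 5 of 22 genes tested were lower and 3 higher with miR-125b against MC in hypoxia, and 12 of 21 genes tested were lower and 1 higher with Trim AG (medians 0.18 and -0.83), where 21.9% and 37.2% of all genes were called in either direction and 12.5% and 20.2% lower. *Col6a3*, a chain of the collagen VI that binds biglycan and decorin, fell by 1.26 and by 3.14 on the log2 scale, and *Col12a1* had -1.15 and -2.25, all called. *Eln*, the elastin gene, had -0.031 with miR-125b and -2.16 (SE 0.22, edgeR adjusted p = 5.8e-05) with Trim AG. *Tnc*, tenascin C, had -1.32 (SE 0.25, edgeR adjusted p = 0.00166) with Trim AG against MC in hypoxia and 1.64 (SE 0.11, edgeR adjusted p = 1.5e-05) with Trim AG against miR-125b in normoxia, or 1.75 (adjusted p = 6.9e-06) without Normoxia miR-125b replicate 1.

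Of the genes for glycosaminoglycan chain synthesis, 23 of 25 symbols listed, 4 of 21 genes tested were lower and 2 higher with miR-125b against MC in hypoxia, and 10 of 21 genes tested were lower and 1 higher with Trim AG (medians -0.26 and -0.53), beside the same 12.5% and 20.2% of all genes called lower. The genes of this list called in the most comparisons were *Chst15*, *Chst3*, *Chst14* and *Chst12*, which encode sulfotransferases. They had -1.95, -1.69, -1.30 and -1.06 with Trim AG, all called. Other proteoglycan core proteins, 22 of 23 listed, showed 4 of 15 genes tested lower and 2 higher with miR-125b and 7 of 15 genes tested lower and 3 higher with Trim AG (medians -0.13 and -0.56). *Gpc1* (glypican), *Agrn* (agrin) and *Sdc4* (syndecan) had -2.54, -2.87 and -1.33 with Trim AG, all called. Receptors and growth factors bound by SLRPs, 16 of 17 listed, were 3 lower and 0 higher of 12 with miR-125b, and 5 lower and 1 higher with Trim AG (medians -0.36 and -0.51). The one that rose was *Tgfb3*, at 1.32 (SE 0.076, edgeR adjusted p = 2.9e-06), while its receptor gene *Tgfbr2* had -0.96 (SE 0.11, edgeR adjusted p = 1.3e-04).

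Genes that lie near *Ogn* in other mammals, 5 of 8 symbols listed, moved in both directions. With Trim AG against MC in hypoxia 2 of 5 tested were higher and 1 lower. Of all genes tested, 37.2% were called in either direction and 20.2% lower. *Iars*, an aminoacyl-tRNA synthetase gene, and *Nol8*, a nucleolar gene, had 1.41 and 1.35, and *Bicd2*, a gene of dynein transport, had -1.07, all called. In the myoblast and cardiac list 6 of 11 genes tested were lower and 1 higher with miR-125b and 6 lower and 1 higher of 11 with Trim AG (medians -0.82 and -0.96). The fibroblast list had 1 lower and 1 higher of 7 with miR-125b, and 2 lower and 0 higher of 7 with Trim AG (medians -0.013 and -0.57), where *Col1a1* had 0.76 (SE 0.029, edgeR adjusted p = 4.8e-09) and -0.83 (SE 0.24, edgeR adjusted p = 0.0155). The endothelial and immune list had 1 lower and 0 higher of 3 in each.

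The genes whose pattern over the 11 groups was most like a member's were ranked by Pearson's r of group means of log2 CPM over 11255 genes, as a description over 11 points that share libraries. For *Ogn* these were *Islr* (0.973), *2900026A02Rik* (0.941), *Hibadh* (0.936), *Zfp362* (0.932) and *Arvcf* (0.932), of which *Islr* encodes another secreted protein with leucine-rich repeats. For *Bgn* they included *Fam134a* (0.976) and *Gaa* (0.950), and for *Lum* they were *Coq10a* (0.972), *Znfx1* (0.966) and *Ikbkb* (0.962). For *Dcn* they were *Ephx1* (0.991), *Car9* (0.980) and *Atg14* (0.977). For *Fmod* they were *Prss53* (0.952), *Rap1gap* (0.948) and *Muc1* (0.945). Among the member genes *Lum* and *Dcn* were most alike, with r = 0.928, followed by *Fmod* and *Ogn* with 0.814 and *Bgn* and *Ogn* with 0.795, while *Bgn* and *Dcn* had 0.227. No p-value was computed for these values.

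For Normoxia MC the authors' group means of scaled counts, given only beside Plus A, are the values at hand, without an error or a test. The authors' mean of *Lum* was 91.0 with Plus A and 368 with MC, and that of *Dcn* 42.3 with Plus A and 78.1 with MC. *Fmod* had 37.9 with Plus A and 14.4 with MC, *Bgn* 61933 with Plus A and 64938 with MC and *Prelp* 12.2 with Plus A and 9.73 with MC. *Lum* and *Dcn* were thus lower and *Fmod* higher with Plus A in these means, the directions measured against MC in hypoxia. The *Ogn* means were 41.3 with Plus A and 46.0 with MC for one identifier and 1.69 with Plus A and 6.21 with MC for the other. The mean of Normoxia Plus A could not be recomputed here without its library labelled replicate 1. These means are on another scale than the CPM above and were not set beside them.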

How the data were processed

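RNA of H9C2 cells was measured by sequencing in 36 samples of 12 groups, mapped from the labels. The authors deposited raw counts per gene and FPKM, their counts scaled by gene length and library size, for 33 libraries, and for Normoxia MC group means of scaled counts (signal). HISAT2 and StringTie are named in the submitters' processing notes without versions, and the genome build is not given in the sources used here. Another 66 per-library columns of scaled values, and the authors' own columns of fold changes and p-values, were not used. Tables were joined by gene identifier, with a gene absent from a table set to 0.

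Levels were CPM on total counts of 28361216 to 42672584 per library, and floors of 3 counts cover counting error only. Fold changes came from edgeR 4.0.16 in R 4.3.3 (TMM scaling, filterByExpr, quasi-likelihood test, Benjamini-Hochberg adjustment over all genes tested), fitted on the libraries of each comparison. The script was tested on simulated data. Calls needed an adjusted p below 0.05 and a fold of at least 1.5. All 24 comparisons were repeated with DESeq2 1.42.0, all libraries in 1 fit, a replicate block, scaling by total counts, genes of low counts kept, each library left out, the identifiers of *Ogn* and of *Aspn* summed (chosen after seeing the data), and, where they enter, the libraries labelled replicate 1 of Normoxia miR-125b and Normoxia Plus A left out.

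The members, gene lists and tests were chosen with earlier results of these data known. Named genes were the 9 members, up to 4 genes of each list by how often they were called, and the 5 genes (for *Ogn*) or 3 genes (for members of at least 1 CPM) whose group means of log2 CPM (prior count 2) correlated best, of which 1 is not reported here. Tables were made with Python 3.11.15 (pandas 2.3.3, numpy 2.4.6) and figures with matplotlib 3.10.9.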

Additional observations from a re-analysis of the deposited data

Results flagged for a closer look

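The values below are the log2 fold change of an isomiR against miR-125b in hypoxia minus that in normoxia. Only that of *Lum* with Trim A is a test result, where 0.483% of all genes tested were called lower. For *Lum* with Trim A the difference was -1.57, which passed the interaction test (edgeR adjusted p = 0.0344) and was lost in 9 of 12 fits that left out a library. Lumican was lower with Trim A than with miR-125b in hypoxia, a call kept in 1 of 6 fits that left out a library. In normoxia it was higher in 3 of 3 libraries. That difference was not called by edgeR and was smaller without the library labelled Normoxia miR-125b replicate 1.

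With Trim AG the differences were -3.97 for *Ogn*, -2.37 for *Fmod*, -2.11 for *Bgn*, -1.92 for *Lum*, -1.62 for *Prelp* and -1.16 for *Dcn*. They contain the contrast in which *Ogn* was selected and are a description. No member is counted as called, and 6.97% of all genes tested were called lower in this interaction. The fibroblast markers summed to 8939 to 16351 CPM in Hypoxia Trim AG and to 19636 to 21561 CPM in Normoxia Trim AG. The largest part of each sum was *Col1a1*. The part of these markers in the differences was not tested.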

How the results depend on the processing

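No fold change of a member that was called turned its direction under any alternative run, and for *Bgn*, *Lum*, *Dcn*, *Fmod* and *Ogn* the log2 ratio of the highest to the lowest group mean moved by less than the spread between libraries with the authors' FPKM or with TMM-scaled CPM. The number of members called moved by over 1.5 times, or to or from 0, in these cases, with *Ogn* left out of the count wherever the libraries of Hypoxia Trim AG or Hypoxia miR-125b enter. Trim AG against MC had 5 with all libraries in 1 fit, against 3. Plus A against miR-125b in hypoxia had 0 with all libraries in 1 fit, against 2. Trim A against miR-125b in hypoxia had 0 with all libraries in 1 fit and 0 with the replicate block, against 2. Trim AGU against miR-125b in hypoxia had 0 with scaling by total counts, 0 with the replicate block and 2 with all libraries in 1 fit, against 1. Plus A in normoxia had 1 without the libraries labelled replicate 1, against 0. Trim A in normoxia had 1 with DESeq2 and 1 with no filter on low counts, against 0. Trim AGU in normoxia had 2 with DESeq2 and 2 with the replicate block, against 1. Trim AGU against Trim AG in hypoxia had 0 with the replicate block, against 2. Hypoxia against normoxia with Trim A had 4 with no filter and 1 with the replicate block, against 2. The 2 added with no filter were both identifiers of *Aspn*, with at most 0.0336 CPM in any Normoxia Trim A library. They are a description. The interaction for Trim A had 3 with DESeq2, 2 with no filter and 0 with the replicate block, against 1. The cause of these changes was not tested. With each library left out in turn, the number ranged from 2 to 5 for Trim AGU and 3 to 5 for Trim AG against MC. Each 5 of these 2 mimics against MC counts *Aspn* (ENSRNOG00000015410), whose reads there were almost all in MC and whose calls are a description. Against miR-125b in hypoxia the number ranged from 0 to 2 for Trim AGU, 0 to 5 for Trim A and 1 to 2 for Plus A. It was 1 to 2 for Trim AGU against miR-125b in normoxia, 0 to 3 in hypoxia and 1 to 2 in normoxia for Trim AGU against Trim AG, 1 to 4 for Trim AGU and 1 to 2 for Trim A between oxygen conditions, and 0 to 1 in the Trim AGU and 0 to 5 in the Trim A interaction. Of the 5 genes most like *Ogn*, 3 were shared when single libraries were used and 1 with Spearman's rho.

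The replicate numbers were not used to pair the libraries. Deviations of same-numbered libraries correlated at -0.161 to 0.224, in no comparison over 0.1 for all 3 numbers, and the replicate block is given only here. For Trim AGU against Trim AG in hypoxia they correlated at 0.0342 to 0.224, against -0.216 to 0.0151 for libraries of unlike number. In normoxia the same pair of mimics had 0.0526 to 0.109 against -0.0801 to 0.00957. Whether the libraries of these 2 mimics were paired was not tested. Scaling by total counts moved the median log2 fold change of all genes to -0.15 for Trim AGU against MC and -0.11 against miR-125b in hypoxia, to 0.12 for Plus A between oxygen conditions and to -0.11 for the Trim AGU interaction. Depth limits *Aspn* and the second *Ogn* identifier, most of whose libraries held under 10 reads, and *Ogn* in Hypoxia Trim AG, with 4 to 12 reads.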
